A study of Mus musculus with 8 samples.

Results

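Mouse embryos cultured with trimetazidine (TMZ) were compared between the 8-cell stage and the morula stage by RNA-seq. TMZ inhibits the long-chain 3-ketoacyl-CoA thiolase, the last enzyme in each turn of the β-oxidation of long-chain fatty acids. Embryos came from superovulated ICR females of 7 weeks, grew in KSOM medium and received 100 μM TMZ in culture. The methods of the study name both the zygote and the 2-cell stage as the start of inhibitor treatment, and both lie before the stages compared. The comparison used 4 of the 8 libraries of the series: 2 libraries of TMZ-treated 8-cell embryos, taken 70 h after hCG injection, and 2 of TMZ-treated morulae, taken 78 h after it. How many embryos went into a library is not given in the sources used here, and the methods state another number of biological replicates than the libraries labelled, so what 1 library stands for is unsure. The other 4 libraries, control embryos cultured without TMZ and taken at the same times, were the background. A library holds whole embryos, so fewer cells of a type and less RNA per cell cannot be told apart.

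Between the 8-cell stage and the morula, the mouse embryo compacts: its cells flatten against each other, polarise, and the outer cells start the programme of the trophectoderm, the epithelium that later pumps fluid into the blastocyst cavity and forms the placenta. The inner cells keep the pluripotency network. Transcripts left over from the oocyte go on being cleared, and the use of glucose and the activity of the mitochondria grow towards the blastocyst.

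The deposited values are FPKM, fragment numbers per gene corrected for gene length and library size, and they were scaled here by the median ratio over the columns of both stages. The tables name no genes. Rows were assigned to genes by aligning, in order, the gene lengths recovered from the values with the exonic lengths of GENCODE vM39 genes, so each gene name below carries the uncertainty of that alignment. Of 20997 genes assigned in both tables, 8270 reached 1 FPKM on average in the TMZ libraries and were tested. Library totals ran from 31672356 to 64814423 fragments. In the 8-cell table the header of the TMZ columns is identical, so the replicate numbers of these libraries are unknown and they are called A and B. Library A stood apart: 19466 rows of its table were detected, against 25336 in library B, and its 10 most abundant rows took 11.03% of its fragments. The spread between libraries A and B (SD 0.53 on the log2 scale over the genes tested) was larger than between the TMZ morulae (0.29). The stages were deposited in separate tables, so a difference between stages and a difference between tables cannot be told apart within TMZ. In the difference between the TMZ and control stage changes, a factor that a gene carries in a table cancels.

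From the 8-cell stage to the morula under TMZ, 562 genes (6.8% of those tested) rose and 654 (7.91%) fell at the threshold the study used, which asks for P below 0.05 before adjustment and a log2 change of more than 0.5 in size. All changes below are morula minus 8-cell on the log2(scaled FPKM + 1) scale, ± the standard error, tested by limma. The scale understates changes of low genes. Only Vars1 passed at an adjusted p under 0.05 (0.0121% of the genes), and 22 genes passed at 0.10, and all other calls below rest on the unadjusted P. In the control embryos, 1040 genes rose (11.9%) and 992 fell (11.4%) at the same threshold, of which 105 (1.2%) and 95 (1.09%) passed at an adjusted p under 0.05. The shares at the threshold (6.8% and 7.91% under TMZ, 11.9% and 11.4% in control) are the background for each count of list members below that uses all libraries. They are not the background of list counts with a library left out. Those are to be read beside the counts over all 8270 genes with that library left out, given at the end of this paragraph. The libraries of the 2 stages did not overlap in 49.3% of genes under TMZ and in 55.9% in control, 29.5% higher and 26.4% lower. Without library A the counts under TMZ were 1491 and 1240, without library B 1072 and 1273, 189 and 253 without the first morula library and 216 and 316 without the other. On FPKM as deposited, without scaling, 697 genes rose and 529 fell, so the balance of the directions depends on the scaling.

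Most genes that changed clearly in control embryos had a TMZ change of the same sign, with a smaller median. The 2 comparisons share no library, but both were taken between the same separately deposited tables. A factor that a gene carries in a table, or a wrongly assigned row, thus enters both changes in the same direction. How much of the shared signs and of the correlation below comes from this was not tested. Of 102 genes higher in control morulae at an adjusted p under 0.05, 97 were above 0 under TMZ and 58 passed the threshold there, with a median of 1.52 in control and 0.98 under TMZ. Of 88 genes lower in control morulae, 68 were below 0 under TMZ and 34 passed, with medians of -1.46 and -0.71. These genes were picked by their control change, and how far that choice lowers the TMZ medians was not tested. Taken the other way, 460 of 551 genes that rose under TMZ were also above 0 in control, and 557 of 612 that fell were also below 0. Across the 8011 genes in both fits, Pearson's r between the stage changes was 0.50, a description over genes that share libraries. The difference between the stage changes passed the threshold for 417 genes higher under TMZ (4.89%) and 222 lower (2.6%), together 7.49% of 8534 tested. Among the protein-coding genes of this fit the balance was the other way, with 76 higher and 153 lower, and a fit on protein-coding genes alone gave 90 and 181. By limma none passed at an adjusted p under 0.05, and the smallest adjusted p was 0.354; voom on recovered fragments gave 296 and 204 and none after adjustment. On FPKM as deposited these counts were 540 and 113, and those of control 726 and 1245, with the median difference of all genes at 0.11 rather than -0.04.

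**Figure D1:**
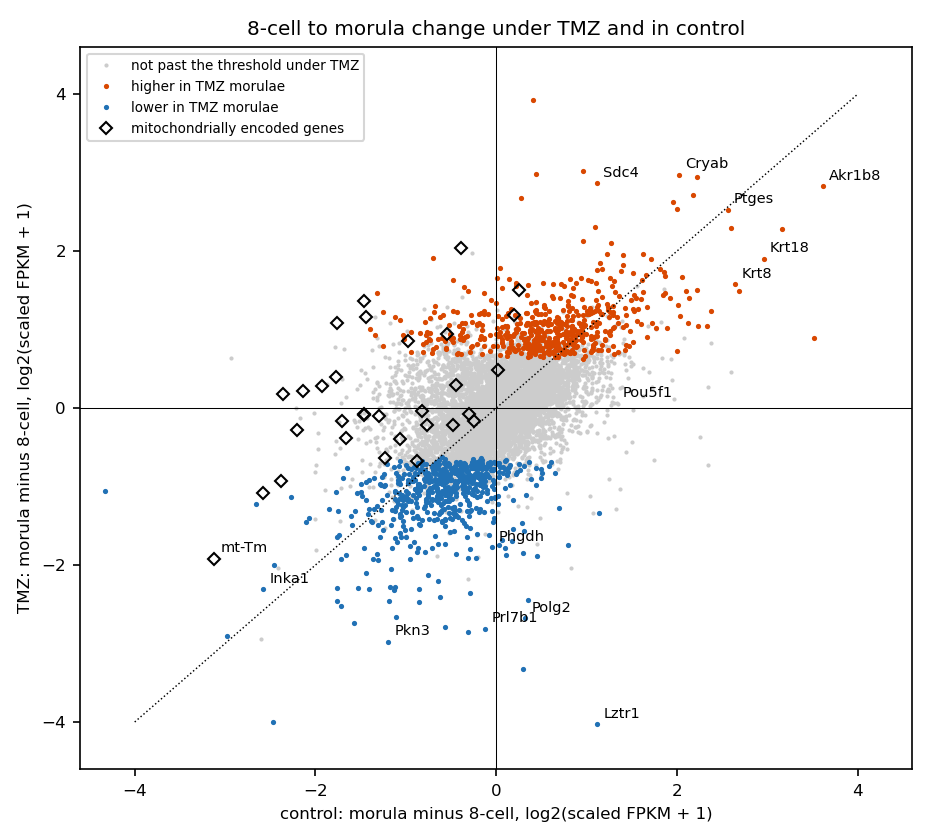
Each point is a gene tested in both TMZ and control embryos, placed by its morula minus 8-cell change on the log2(scaled FPKM + 1) scale in control (horizontal) and under TMZ (vertical); the dotted line marks equal changes, and 2 genes, Vars1 (at -9.80 under TMZ) and Gm9376, lie outside the axes. Orange and blue points rose or fell under TMZ, and the open diamonds, mitochondrially encoded genes, lie above the dotted line.

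The 10 largest rises under TMZ, among protein-coding genes with a mean of at least 10 FPKM in the higher stage and no overlap between the libraries of the 2 stages (49.3% of all genes tested did not overlap), were led by Cryab, Sdc4 and Akr1b8. Cryab, which encodes the small heat shock protein αB-crystallin (chr9:50651859-50668567 in GRCm39), stood at 2.14 and 1.56 FPKM in 8-cell libraries A and B and 32.7 and 13.7 FPKM in the morula libraries, a rise of 2.97 ± 0.43 (adjusted p = 0.101). The control libraries rose by 2.02. Sdc4, a heparan sulfate proteoglycan of the cell surface, stood at 5.00 and 1.22 FPKM in 8-cell libraries A and B and 22.2 and 29.6 FPKM in the morula libraries and rose by 2.87 ± 0.49. Akr1b8, an aldo-keto reductase that removes reactive aldehydes (chr6:34331054-34345409), stood at 10.1 and 12.3 FPKM before and 92.3 and 77.8 FPKM after the step to the morula and rose by 2.82 ± 0.28 (adjusted p = 0.0626). Its control libraries went from 4.34 and 10.4 to 105 and 85.5 FPKM. In Akr1b8 the morulae of both treatments overlapped in level.

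Further down the ranking came Serpinb9b, a serine protease inhibitor, at 3.16 and 1.22 FPKM at the 8-cell stage and 13.7 and 20.2 FPKM in morulae (rise 2.54 ± 0.39). Cdk2ap1rt, a retrotransposed relative of a CDK2-associated protein, stood at 1.86 and 9.39 FPKM in libraries A and B and 28.5 and 18.1 FPKM in morulae (rise 2.13 ± 0.60), and 90.5% of its 31-base stretches stand elsewhere in the genome, so its fragments may belong to a copy. Tspan1, a tetraspanin of epithelial membranes, stood at 26.5 and 11.8 FPKM before and 68.5 and 91.7 FPKM after the step to the morula (rise 2.10 ± 0.42). Anxa2, annexin A2, which binds membranes and actin, stood at 4.35 and 6.18 FPKM at the 8-cell stage and 20.7 and 26.1 FPKM in morulae (rise 1.97 ± 0.30). In Anxa2 both TMZ morula libraries were above both control morula libraries (14.6 and 11.9 FPKM), while the difference of the stage changes, 0.74 ± 0.51, did not pass. Khdc3, a subunit of the subcortical maternal complex of the oocyte and embryo, stood at 28.9 and 28.4 FPKM in libraries A and B and 94.4 and 106 FPKM in morulae, and its rise of 1.77 ± 0.27 lay beside 1.81 in control. Krt18 and Gdf3, the other members of this group of 10, are described with their lineages below.

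The largest falls, chosen in the same way, were led by entries whose libraries were uneven in other groups. The entry assigned to Vars1, a cytosolic valyl-tRNA synthetase (chr17:35219871-35235305), stood at 3342 and 696 FPKM before and 0.694 and 0.723 FPKM after the step to the morula, a change of -9.80 ± 0.67 (adjusted p = 0.0229). In control it stood at 719.9 and 0.892 FPKM at the 8-cell stage and 239.9 and 1.68 FPKM in morulae, so single control libraries of the same group differed by a similar amount. Lztr1, an adaptor of a ubiquitin ligase for RAS proteins, stood at 29.6 and 16.7 FPKM at the 8-cell stage and 0.577 and 0.299 FPKM in morulae (change -4.02 ± 0.35, adjusted p = 0.0514), with 0.747 and 21.9 FPKM in the control 8-cell libraries. Both entries thus varied widely within a control group as well as between the TMZ stages.

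Other large falls came from a high level in both TMZ 8-cell libraries. Pkn3, a serine/threonine protein kinase, stood at 14.3 and 11.7 FPKM in libraries A and B and 0.559 and 1.01 FPKM in morulae (change -2.98 ± 0.29, adjusted p = 0.0626), against 1.93 and 3.03 FPKM in control 8-cell embryos. Polg2, the accessory subunit of the polymerase that copies mitochondrial DNA (chr11:106658820-106670380), stood at 14.6 and 19.2 FPKM before and 1.79 and 1.74 FPKM after the step to the morula (change -2.68 ± 0.28, adjusted p = 0.0626), against 3.10 and 4.08 FPKM in control 8-cell embryos. Prl7b1, a prolactin-family hormone of the placenta, stood at 8.63 and 15.7 FPKM at the 8-cell stage and 1.40 and 0.359 FPKM in morulae (change -2.81 ± 0.41), against 1.28 and 1.68 FPKM. In these 3 genes the TMZ 8-cell libraries were above every other library of the series, and the TMZ morulae were below the control morulae in Polg2 and overlapped them in Pkn3 and Prl7b1. How many of all genes had such libraries was not counted.

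The remaining large falls had a control change below 0 as well. Of the falls described before, so had Pkn3 (-1.19 ± 0.25, which passed), Vars1 (-0.54) and Prl7b1 (-0.12). The control changes of Lztr1 and Polg2 were above 0. Fhl3, a LIM-domain cofactor of transcription, stood at 23.0 and 17.2 FPKM in libraries A and B and 1.80 and 3.71 FPKM in morulae (change -2.53 ± 0.35, -1.72 in control). Usp17lb, a deubiquitinase of a tandem family, stood at 15.8 and 21.1 FPKM before and 1.74 and 3.45 FPKM after the step to the morula (change -2.46 ± 0.34, -1.77 in control), with 29.4% of its 31-base stretches found elsewhere. Inka1, an inhibitor of the kinase PAK4, stood at 25.6 and 93.7 FPKM at the 8-cell stage and 9.89 and 8.45 FPKM in morulae (change -2.31 ± 0.57, -2.58 in control). Nxf2, an mRNA export factor of the germ line, stood at 89.1 and 33.6 FPKM in libraries A and B and 8.94 and 11.9 FPKM in morulae (change -2.30 ± 0.47), and Slc1a7, a glutamate transporter, at 17.9 and 15.1 FPKM before and 1.64 and 3.80 FPKM after the step to the morula (change -2.29 ± 0.36). All 10 falls and all 10 rises kept their call when any single TMZ library was left out, and Gdf3 lost it without the filter on low values.

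**Figure D2:**
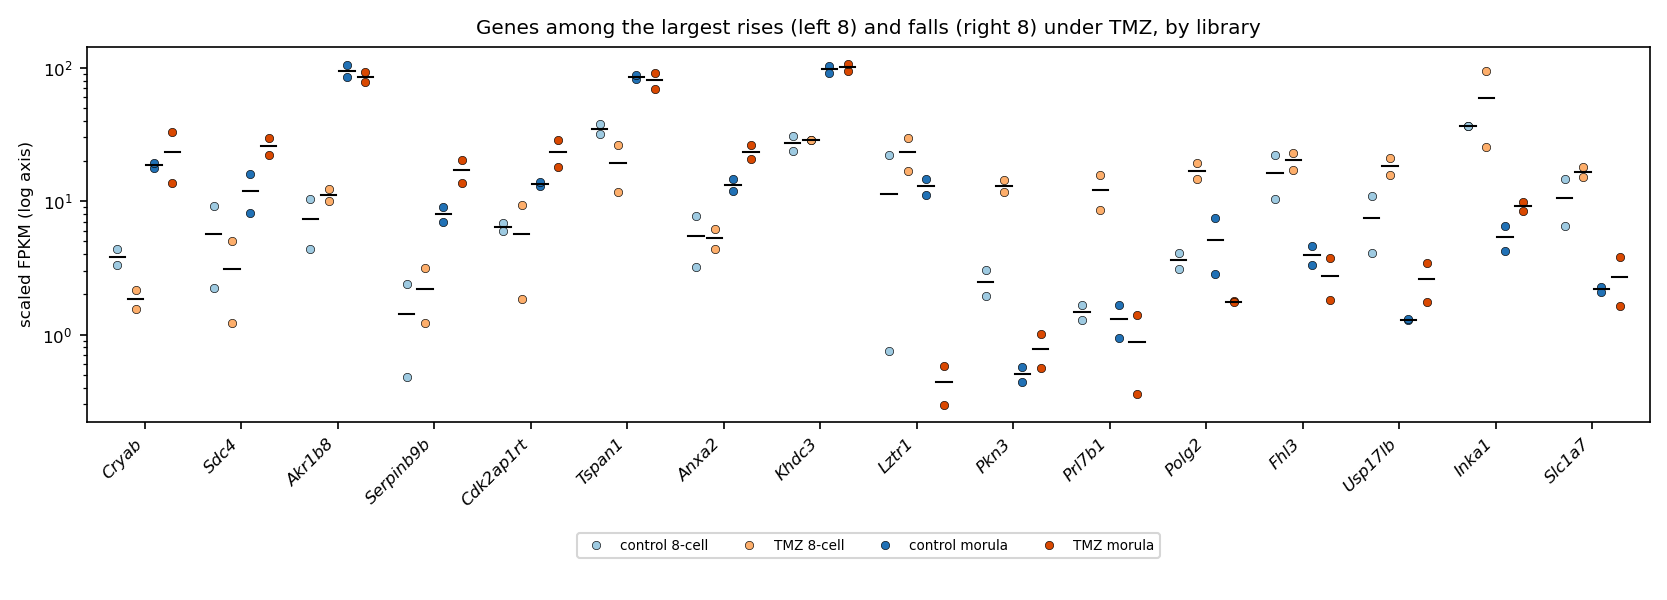
Scaled FPKM on a log axis in all 8 libraries for 8 of the 10 largest rises and 8 of the 10 largest falls under TMZ; points are libraries, coloured by group, and bars are group means. In the rises the TMZ morula points lie above both TMZ 8-cell points, and in Pkn3, Prl7b1 and Polg2 the TMZ 8-cell points lie above all other groups.

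Keratins and other early trophectoderm genes were among the rises. Of 28 genes listed for the trophectoderm, 24 were assigned and 14 had enough signal to be tested. Of these 4 rose (Ptges, Elf3, Krt18 and Krt8, beside 6.8% of all genes), 1 fell (Fgfr2, beside 7.91%) and 9 did not pass. The median change was 0.58 beside 0.02 over all genes tested. Rises and falls in this list were 7 and 1 without library A, 4 and 1 without library B, 4 and 0 without morula library 1 and 6 and 0 without morula library 2, and the medians 0.75, 0.36, 0.34 and 0.90. In control embryos 7 of 14 rose (beside 11.9% of all genes) and the median was 0.66. Krt18, the type I keratin of simple epithelia (chr15:101936620-101940460), stood at 15.4 and 7.77 FPKM at the 8-cell stage and 40.9 and 47.1 FPKM in morulae and rose by 1.90 ± 0.37, in control by 2.96. Its partner Krt8 stood at 2.20 and 2.39 FPKM in libraries A and B and 11.4 and 6.77 FPKM in morulae and rose by 1.58 ± 0.32, in control by 2.64, and this difference of -1.07 ± 0.44 passed the threshold (adjusted p = 0.628). Both TMZ morula libraries lay below both control morula libraries (18.9 and 20.9 FPKM) in Krt8, and 63.9% of the 31-base stretches of Krt8 stand elsewhere in the genome.

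Elf3, an ETS transcription factor of epithelia, stood at 0.383 and 0.479 FPKM before and 10.5 and 3.30 FPKM after the step to the morula (rise 2.30 ± 0.48, 2.60 in control). Ptges, the synthase of prostaglandin E2, stood at 0.310 and 0.199 FPKM at the 8-cell stage and 6.57 and 5.91 FPKM in morulae (rise 2.53 ± 0.28, adjusted p = 0.0626, 2.56 in control). Fgfr2, the FGF receptor of the later trophectoderm, was 5.59 and 4.93 to 2.82 and 2.81 FPKM (change -0.71 ± 0.27). Cdx2, the factor that sets trophectoderm identity, stood at 0.851 and 0.352 FPKM in libraries A and B and 2.79 and 1.25 FPKM in morulae, a change of 0.88 ± 0.38 that missed the threshold (adjusted p = 0.345), against 1.42 in control (adjusted p = 0.0378). Gata3, which acts beside it, changed by 0.75 ± 0.37 (1.84 and 1.03 to 4.27 and 2.09 FPKM) and Tfap2c, needed for polarity, by -0.001 ± 0.32 (13.5 and 19.8 to 19.1 and 14.0 FPKM), and neither passed. Across the 14 tested genes, the difference from control was below 0 in 12, with a median of -0.52 beside -0.04 over all genes, and passed in 2, Krt8 and Fgfr2. Tead4, another factor of this programme, was not assigned in both tables.

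The promoters of the 4 trophectoderm genes that rose are shown because these genes moved together, with letters searched for the motifs of 2 factor families of this lineage. They run from 250 bases before the start to 50 after it, from RefSeq on GRCm38.p6, on the strand of the gene, with GGAATG, the letters of the TEAD motif, and GCCNNNGGC, the letters of the TFAP2 motif, in capitals on either strand (CATTCC is the TEAD motif read on the other strand).
Krt8, chr15:102004293-102004592: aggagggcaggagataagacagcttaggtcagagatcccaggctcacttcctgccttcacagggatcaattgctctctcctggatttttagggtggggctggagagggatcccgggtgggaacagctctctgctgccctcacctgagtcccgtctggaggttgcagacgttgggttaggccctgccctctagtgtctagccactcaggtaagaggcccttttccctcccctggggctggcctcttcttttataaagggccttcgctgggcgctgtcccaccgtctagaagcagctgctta
Krt18, chr15:102027966-102028265: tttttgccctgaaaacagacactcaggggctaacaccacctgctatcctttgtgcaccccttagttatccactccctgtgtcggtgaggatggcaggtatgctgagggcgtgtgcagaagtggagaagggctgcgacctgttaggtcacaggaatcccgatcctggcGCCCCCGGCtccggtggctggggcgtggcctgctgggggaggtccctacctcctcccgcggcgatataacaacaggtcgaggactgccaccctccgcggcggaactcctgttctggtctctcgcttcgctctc
Elf3, chr1:135258423-135258722: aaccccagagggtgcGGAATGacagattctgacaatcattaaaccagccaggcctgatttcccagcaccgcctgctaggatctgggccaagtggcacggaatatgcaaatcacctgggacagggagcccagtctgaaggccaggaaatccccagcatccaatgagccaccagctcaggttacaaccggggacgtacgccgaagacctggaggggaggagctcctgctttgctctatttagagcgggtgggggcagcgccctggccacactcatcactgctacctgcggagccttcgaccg
Ptges, chr2:30903248-30903547: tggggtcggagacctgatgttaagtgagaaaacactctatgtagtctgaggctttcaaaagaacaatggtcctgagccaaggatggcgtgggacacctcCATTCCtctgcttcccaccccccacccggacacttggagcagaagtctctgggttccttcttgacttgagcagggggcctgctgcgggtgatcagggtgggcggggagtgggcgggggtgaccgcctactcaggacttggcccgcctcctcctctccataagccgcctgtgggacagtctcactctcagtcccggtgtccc

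The TEAD letters stood in the windows of Elf3 and Ptges, the TFAP2 letters in that of Krt18, and neither in that of Krt8. The hits were single and did not overlap each other. Of 32851 promoters of the same length, 14.7% held the TEAD letters and 16.6% the TFAP2 letters. Among the genes with a promoter entry that rose under TMZ (395), the shares were 14.4% and 23%, among those that fell (525) 10.5% and 26.9%, and among all tested (6611) 11.9% and 23.6%. A match describes letters in this window and was not tied to binding.

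Pluripotency genes moved in both directions. Of 32 listed, 22 were tested. Gdf3 and Zfp42 rose (beside 6.8% of all genes), Klf17, Klf5 and Klf4 fell (beside 7.91%) and 17 did not pass, with a median of -0.12. In control there were 8 rises (beside 11.9%), 4 falls (beside 11.4%) and a median of 0.23. The sign of the TMZ median turned without library A. Rises and falls of these genes were 5 and 5 without library A, 2 and 4 without library B, 1 and 2 without morula library 1 and 1 and 0 without morula library 2, and the medians 0.14, -0.25, -0.12 and -0.16. Gdf3, a TGF-β family ligand, stood at 10.3 and 1.08 FPKM before and 16.6 and 17.6 FPKM after the step to the morula, and its rise of 1.90 ± 0.72 rests on 8-cell libraries that differed, at a high level in A and a low level in B. Zfp42, known as Rex1, stood at 77.0 and 66.8 FPKM at the 8-cell stage and 108 and 134 FPKM in morulae (rise 0.74 ± 0.28). Klf5, a Krüppel-like factor that acts in both early lineages, stood at 106 and 80.6 FPKM in libraries A and B and 38.8 and 28.2 FPKM in morulae (change -1.453 ± 0.31, -0.61 in control), and Klf17 at 50.5 and 106 FPKM before and 31.1 and 21.9 FPKM after the step to the morula (change -1.453 ± 0.41, -2.11 in control). Klf4 fell (14.3 and 20.8 to 10.2 and 8.36 FPKM, -0.84 ± 0.31), with -0.77 in control. Of the 31-base stretches of Klf17, 34.2% stand elsewhere in the genome, as do 22.7% of those of Klf4.

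Pou5f1, the OCT4 factor at the centre of pluripotency (chr17:35816789-35822274), stood at 19.6 and 10.4 FPKM at the 8-cell stage and 19.2 and 11.6 FPKM in morulae. The groups overlapped, and the change was 0.06 ± 0.40. In control embryos it rose from 16.0 and 10.2 to 29.3 and 39.0 FPKM (1.33 ± 0.28), and the difference of -1.27 ± 0.53 passed the threshold (adjusted p = 0.633). Nanog stood at 13.9 and 18.0 FPKM in libraries A and B and 14.1 and 12.5 FPKM in morulae (change -0.24 ± 0.29), with libraries that overlapped. In control it stood at 25.1 and 15.7 FPKM at the 8-cell stage and 24.6 and 25.3 FPKM in morulae. Neither the control change of Nanog (0.31 ± 0.26) nor its difference (-0.55 ± 0.39) passed. Dppa3, a maternal factor that protects DNA methylation, stood at 23749 and 13967 FPKM before and 14333 and 18553 FPKM after the step to the morula (change -0.16 ± 0.31). Sox2 was at 0 in 6 of the 8 libraries and at most 0.112 FPKM in the others, and was not tested.

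**Figure D3:**
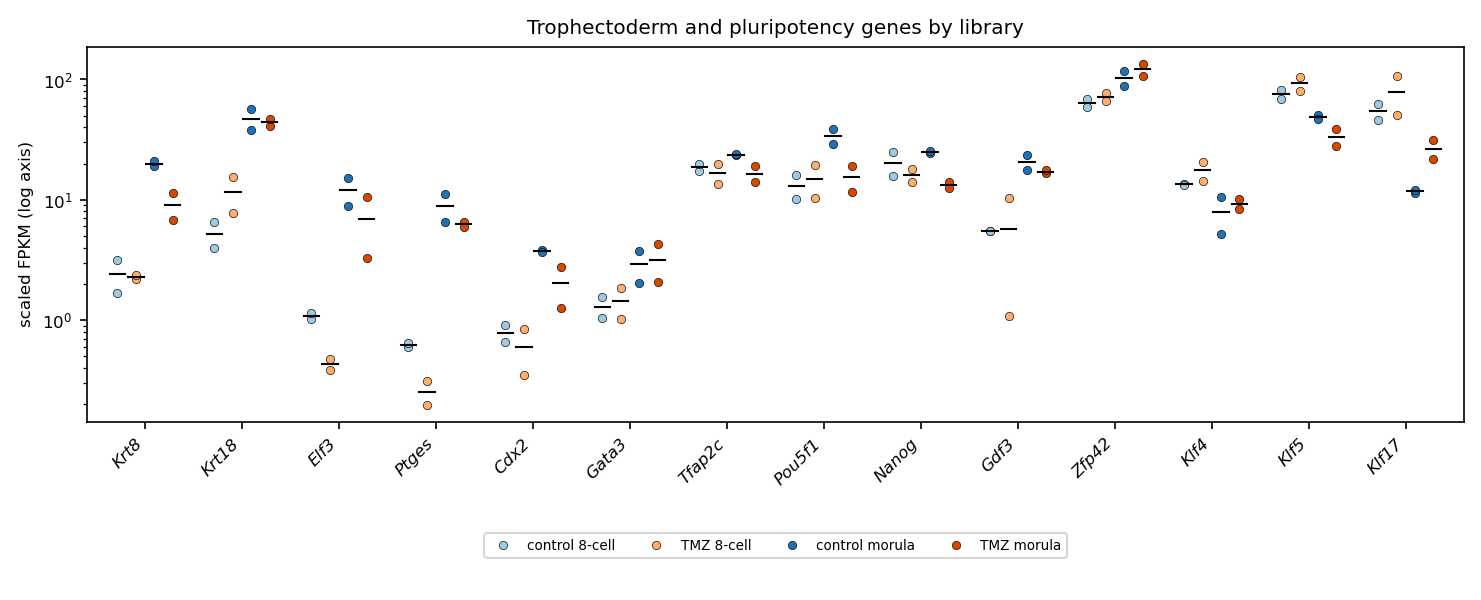
Scaled FPKM on a log axis in all 8 libraries for trophectoderm genes (Krt8 to Tfap2c) and pluripotency genes (Pou5f1 to Klf17); points are libraries and bars are group means. Krt8, Krt18, Elf3 and Ptges rise in both TMZ and control morulae, and Pou5f1 is higher in control morulae than in the other 3 groups.

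Of 38 compaction and polarity genes listed, 24 were tested: Epb41l5, a regulator of apical polarity, rose by 1.19 ± 0.41 (2.16 and 0.481 to 4.15 and 3.73 FPKM) and Ctnnb1, β-catenin, by 0.70 ± 0.28 (3.52 and 4.19 to 6.13 and 7.64 FPKM), and none fell. Cdh1, the E-cadherin that drives compaction, stood at 3.04 and 4.91 FPKM at the 8-cell stage and 4.79 and 5.81 FPKM in morulae and changed by 0.36 ± 0.31 with overlapping libraries. Of 31 cavitation genes listed, 16 were tested: 4 rose (beside 6.8% of all genes) and 1 fell (beside 7.91%), against 5 and 1 in control. Rises and falls of cavitation genes were 6 and 3 without library A, 3 and 0 without library B, 1 and 0 without morula library 1 and 0 and 0 without morula library 2. With all libraries the rises were Fxyd4, a regulator of the sodium pump (4.82 and 5.11 to 8.83 and 13.1 FPKM, 0.98 ± 0.30), the tight junction proteins Cldn6 (3.95 and 5.47 to 10.6 and 8.94 FPKM, 0.93 ± 0.29) and Ocln (7.40 and 3.80 to 9.82 and 11.3 FPKM, 0.86 ± 0.35), and the water channel Aqp3 (10.1 and 11.9 to 17.6 and 19.1 FPKM, 0.69 ± 0.27). Aqp3 reached 47.5 and 29.6 FPKM in control morulae, above both TMZ morula libraries, with a difference of the stage changes of -0.61 ± 0.42 that did not pass. Aqp11, a channel of internal membranes, fell (3.58 and 8.29 to 2.16 and 2.33 FPKM, -1.01 ± 0.39), and Atp1b1, the β1 subunit of the sodium pump, changed by 0.40 ± 0.30 (1.83 and 1.49 to 2.07 and 2.99 FPKM) without passing.

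Fewer maternal transcripts passed as falling under TMZ than in control, as did fewer of all genes (7.91% against 11.4%). The difference was tested gene by gene. Of 48 oocyte and maternal genes listed, 28 were tested under TMZ. Of these 6 fell (beside 7.91% of all genes), 2 rose (beside 6.8%) and 20 did not pass, with a median of -0.29. Rises and falls of maternal genes were 2 and 6 without library A, 2 and 10 without library B, 1 and 3 without morula library 1 and 2 and 5 without morula library 2, and the medians -0.31, -0.24, -0.42 and -0.11. In control 16 of 27 fell (beside 11.4% of all genes), 1 rose (beside 11.9%) and the median was -0.71. How much of this contrast comes from the lower share of calls under TMZ was not tested. The difference passed upwards in 5 of 26 and downwards in 1, Dazl, with a median of 0.29. Omt2b, an oocyte-enriched gene, stood at 74.9 and 43.2 FPKM in libraries A and B and 14.8 and 12.3 FPKM in morulae (change -2.00 ± 0.35), Omt2a at 33.5 and 14.9 FPKM before and 8.57 and 10.9 FPKM after the step to the morula (change -1.14 ± 0.41), and their control morulae were lower, at 5.93 and 8.07 and 2.85 and 4.64 FPKM. These neighbours share 55.6% and 55.1% of their 31-base stretches with other places and may exchange fragments. Zar1l, an RNA-binding protein of the oocyte, also fell (2.25 and 3.36 to 0.483 and 0.594 FPKM, -1.29 ± 0.31), as did Zp3, a zona pellucida glycoprotein (19.5 and 17.02 to 5.44 and 11.2 FPKM, -1.12 ± 0.37), Npm2, an oocyte nucleoplasmin (18.9 and 33.2 to 11.1 and 11.8 FPKM, -1.07 ± 0.34), and Dazl, a germ cell RNA-binding protein (2.19 and 1.498 to 0.243 and 0.522 FPKM, -1.04 ± 0.32).

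Khdc3, above, and Oosp3, an oocyte secreted protein (0.619 and 0.914 to 1.88 and 1.90 FPKM, 0.71 ± 0.30), were the 2 that rose. Under TMZ, Oosp3 lost its call with a pseudocount of 0.1, without the filter on low values, without library A and without either morula library. It fell in control (-0.81), and the difference of 1.52 ± 0.40 passed. Gdf9, an oocyte growth factor, stood at 0.334 and 2.55 FPKM at the 8-cell stage and 1.03 and 0.524 FPKM in morulae and changed by -0.31 ± 0.50 with overlapping libraries. Of 35 genes of the 2-cell stage listed, 12 were tested: Usp17lb, Zfp352 (2.04 and 2.29 to 0.502 and 0.0876 FPKM, -1.31 ± 0.32) and Eif1ad7 (11.8 and 14.0 to 2.33 and 8.54 FPKM, -1.30 ± 0.50) fell, and Pramel6 rose (220.1 and 79.9 to 413 and 257 FPKM, 1.29 ± 0.51). Eif1ad7 lost its call without library A, without library B and without morula library 1, and Pramel6 without library B and without morula library 1. Of the 31-base stretches of Eif1ad7, 92.7% stand elsewhere in the genome, as do 26.6% of those of Zfp352. Zscan4d was not assigned in both tables.

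Of 26 tricarboxylic acid cycle genes listed, 20 were tested, 5 rose (beside 6.8% of all genes), none fell and 19 were above 0, with a median of 0.61 (0.38 in control, 6 of 21 rising). Idh2, the mitochondrial NADP-dependent isocitrate dehydrogenase (chr7:79741431-79765535), stood at 11.2 and 6.03 FPKM in libraries A and B and 28.1 and 28.1 FPKM in morulae (rise 1.65 ± 0.34). Sdha, the flavoprotein subunit of succinate dehydrogenase, stood at 3.22 and 1.98 FPKM before and 12.3 and 8.01 FPKM after the step to the morula (rise 1.63 ± 0.34), and its membrane subunit Sdhc at 16.2 and 10.3 FPKM at the 8-cell stage and 29.7 and 27.4 FPKM in morulae (rise 1.08 ± 0.31). Dld, the lipoamide dehydrogenase shared by the pyruvate and 2-oxoglutarate dehydrogenases, was 22.7 and 14.7 to 34.3 and 38.0 FPKM (rise 0.94 ± 0.31) and Suclg2, a succinyl-CoA ligase subunit, 10.5 and 5.19 to 16.8 and 13.8 FPKM (rise 0.94 ± 0.37). Of these 5, Idh2 and Sdha kept the call with each library left out in turn.

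Of 80 nuclear genes of the respiratory chain, 79 were tested, 11 rose (beside 6.8% of all genes), none fell and 65 were above 0, with a median of 0.29 (0.20 in control). Besides Sdha and Sdhc they included Ndufb11b (15.7 and 7.69 to 28.6 and 23.6 FPKM, 1.16 ± 0.38), a complex I subunit copy with 40.04% of its 31-base stretches elsewhere, and Ndufaf2, a complex I assembly factor (5.50 and 5.41 to 11.7 and 15.1 FPKM, 1.15 ± 0.28). In Ndufaf2 the TMZ morulae were above all other libraries, and the difference from control, 0.88 ± 0.33, passed the threshold. Of 68 mitochondrial ribosomal proteins 6 rose, near the 6.8% of all genes, none fell and 57 were above 0 (median 0.34, 0.25 in control), led by Mrps12 (49.9 and 29.7 to 81.1 and 86.0 FPKM, 1.10 ± 0.33). These medians depended on the 8-cell library: without A they were 0.86, 0.64 and 0.69 for the cycle, the chain and the ribosome, and without B 0.42, 0.05 and 0.09. The rises were 14, 47 and 44 without A, 7, 13 and 6 without B, 2, 3 and 0 without morula library 1, and 2, 3 and 0 without morula library 2. Without B, 9 chain genes and 5 mitochondrial ribosomal genes fell, and without A 2 chain genes.

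Of the fatty acid β-oxidation genes, the pathway that TMZ acts on, 19 of 35 listed were tested: Etfb, the β subunit of the electron transfer flavoprotein, rose (13.6 and 7.12 to 22.8 and 21.8 FPKM, 1.10 ± 0.35), Acads, the short-chain acyl-CoA dehydrogenase, fell (9.08 and 9.21 to 5.56 and 4.73 FPKM, -0.73 ± 0.27), and 14 were above 0, with a median of 0.37 (0.38 in control, 4 rising). The α subunit of the trifunctional protein, Hadha, stood at 1.61 and 0.980 FPKM in libraries A and B and 2.34 and 1.58 FPKM in morulae (change 0.37 ± 0.32) and Hadhb, the subunit with the long-chain thiolase activity, at 27.05 and 15.0 FPKM before and 23.0 and 23.1 FPKM after the step to the morula (change 0.18 ± 0.35). Acaa2, a thiolase of the matrix, stood at 10.7 and 5.596 FPKM at the 8-cell stage and 10.6 and 12.1 FPKM in morulae (change 0.49 ± 0.35), where control rose by 0.87. None of these 3 passed under TMZ. Hadh, the short-chain hydroxyacyl-CoA dehydrogenase, changed by 0.54 ± 0.31 (15.1 and 9.80 to 19.4 and 16.99 FPKM), Acadl, the long-chain acyl-CoA dehydrogenase, by 0.71 ± 0.36 (94.7 and 50.9 to 115 and 114 FPKM) and Echs1, the short-chain enoyl-CoA hydratase, by -0.12 ± 0.38 (5.86 and 2.85 to 4.66 and 2.96 FPKM), and none passed. Acsl5 was at or near 0 in all libraries and was not tested.

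Of 49 lipid droplet genes listed, 21 were tested, 7 rose (beside 6.8% of all genes) and none fell, with a median of 0.27. In control 9 of 25 rose (beside 11.9%). Pnpla2, the triglyceride lipase ATGL, stood at 2.12 and 0.684 FPKM in libraries A and B and 10.5 and 5.86 FPKM in morulae (rise 1.95 ± 0.42), and its activator Abhd5 at 3.003 and 2.20 to 4.81 and 4.73 FPKM (rise 0.69 ± 0.28). Plin2, which coats droplets, stood at 6.003 and 5.94 FPKM before and 9.92 and 18.9 FPKM after the step to the morula (rise 1.08 ± 0.35), and Plin3, its cytosolic relative, at 3.83 and 4.81 to 7.62 and 7.76 FPKM (rise 0.71 ± 0.27). Elovl5, an elongase of polyunsaturated fatty acids, rose by 1.21 (4.27 and 1.52 to 7.66 and 7.21 FPKM), and the fatty acid binding proteins Fabp3 by 0.999 (18.9 and 11.2 to 31.9 and 28.4 FPKM) and Fabp5 by 1.04 (3.76 and 3.09 to 8.96 and 7.32 FPKM). Fabp5 rose more in control, to 22.8 and 22.9 FPKM, and the difference of -1.19 ± 0.34 passed (adjusted p = 0.463). Pnpla2 kept its call with each library left out. Leaving out library A or B gave 7 rises and 3 falls in this list, and the rises were 2 without morula library 1 and 3 without morula library 2.

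Of 23 peroxisomal genes tested 2 rose, the bifunctional β-oxidation enzyme Hsd17b4 (1.60 and 0.373 to 4.16 and 3.04 FPKM, 1.27 ± 0.39) and the isomerase Ech1 (0.743 and 0.329 to 1.81 and 2.01 FPKM, 0.93 ± 0.31), against 6 of 25 in control. Of 18 cholesterol synthesis genes tested Pmvk, phosphomevalonate kinase (3.96 and 3.50 to 10.3 and 6.27 FPKM, 0.94 ± 0.32), and Cyp51, lanosterol demethylase (1.36 and 1.52 to 3.29 and 3.39 FPKM, 0.83 ± 0.28), rose. Neither list had a fall. Of 21 glucose and pyruvate genes tested the glycolytic enzymes Aldoa (39.8 and 23.4 to 78.9 and 68.1 FPKM, 1.24 ± 0.34) and Eno1 (1.78 and 1.62 to 4.30 and 4.24 FPKM, 0.96 ± 0.27) rose and Pdk3, a kinase that inhibits pyruvate dehydrogenase, fell (5.77 and 2.25 to 0.772 and 1.30 FPKM, -1.22 ± 0.41). The median of this list was 0.00 under TMZ and 0.44 in control, where 6 rose.

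**Figure D4:**
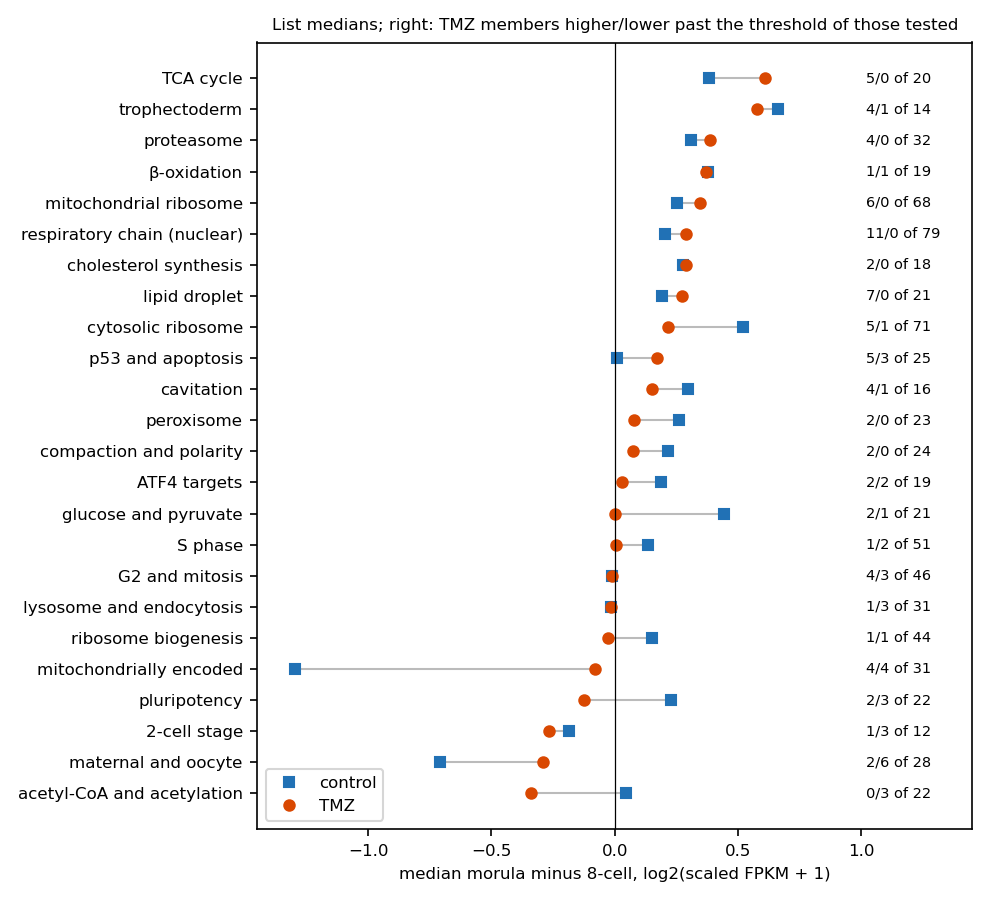
Median morula minus 8-cell change on the log2(scaled FPKM + 1) scale over the tested members of 24 gene lists under TMZ (circles) and in control (squares); the counts at the right are members higher and lower under TMZ of those tested. The largest gap between the groups is that of the mitochondrially encoded genes, at -1.30 in control and -0.08 under TMZ.

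Of 71 cytosolic ribosomal proteins, all were tested: 5 rose (beside 6.8% of all genes), 58 were above 0 and the median was 0.22, against 36 rises (beside 11.9%) and a median of 0.52 in control. Rises and falls of ribosomal proteins were 13 and 1 without library A, 23 and 0 without library B, 0 and 1 without morula library 1 and 0 and 0 without morula library 2. Rps2 (178 and 301 to 476 and 393 FPKM, 0.90 ± 0.33), Rpl6 (205 and 243 to 403 and 375 FPKM, 0.80 ± 0.26), Rpl7a (406 and 393 to 639.6 and 626 FPKM, 0.66 ± 0.25), Rpl14 (509 and 568 to 920.0 and 752 FPKM, 0.63 ± 0.26) and Rpl35 (503 and 406 to 679.8 and 743 FPKM, 0.65 ± 0.26) rose, and Rpl3l, a striated muscle paralogue at low level, fell (1.60 and 2.95 to 1.13 and 0.324 FPKM, -0.93 ± 0.38). Each of these 5 lost its call without morula library 1 and without morula library 2. The difference from control had a median of -0.27, was below 0 in 60 of 71 and passed in 1. Many ribosomal proteins have near-identical processed copies, which can split their fragments. Of 44 ribosome biogenesis genes tested Polr1b, a subunit of RNA polymerase I, rose (2.40 and 2.84 to 5.36 and 4.63 FPKM, 0.73 ± 0.27) and Gar1, a snoRNP protein, fell (17.7 and 14.0 to 9.70 and 8.90 FPKM, -0.70 ± 0.28).

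Of 32 proteasome genes tested 4 rose (beside 6.8% of all genes) and none fell, with a median of 0.39 (0.31 in control, 8 rising): the ATPase subunit Psmc3 (48.6 and 38.5 to 98.5 and 98.9 FPKM, 1.17 ± 0.28), the base subunit Psmd2 (25.1 and 16.8 to 55.7 and 38.1 FPKM, 1.13 ± 0.34), the immunoproteasome subunit Psmb10 (8.95 and 6.39 to 14.2 and 16.3 FPKM, 0.92 ± 0.29) and the core subunit Psmb4 (169 and 194 to 329 and 359 FPKM, 0.92 ± 0.26). In Psmb4 the TMZ 8-cell libraries were the lowest and the TMZ morulae the highest of the series, and its difference from control, 0.73 ± 0.29, passed the threshold. Psmb10 passed likewise (1.10 ± 0.39), and its control change was -0.17 (13.7 and 21.0 to 15.3 and 14.7 FPKM). The list's median was 0.74 without library A and 0.01 without library B. Rises and falls of proteasome genes were 21 and 0 without library A, 5 and 0 without library B, 0 and 0 without morula library 1 and 1 and 0 without morula library 2.

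Of 56 S phase genes listed, 51 were tested. Rpa1, which coats single-stranded DNA, rose (2.98 and 2.26 to 5.50 and 5.41 FPKM, 0.84 ± 0.28). Pola2, a subunit of the primase complex, and Usp1, the deubiquitinase of the Fanconi pathway, fell. This was 1 rise (beside 6.8% of all genes) and 2 falls (beside 7.91%), and the median was 0.00. In control the median was 0.14, 8 rose (beside 11.9%) and 1 fell (beside 11.4%). Rises and falls of S phase genes were 14 and 5 without library A, 2 and 7 without library B, 0 and 1 without morula library 1 and 0 and 1 without morula library 2, and the medians 0.13, -0.12, -0.01 and 0.08. Pola2 stood at 79.5 and 27.3 FPKM at the 8-cell stage and 12.1 and 14.5 FPKM in morulae (change -1.75 ± 0.50), above its control 8-cell level of 12.4 and 19.5 FPKM, and its difference from control, -1.78 ± 0.63, passed. Usp1 was 88.0 and 96.7 to 57.8 and 52.4 FPKM (-0.74 ± 0.27). Mcm4, a subunit of the replicative helicase, stood at 14.2 and 10.04 FPKM in libraries A and B and 16.9 and 11.5 FPKM in morulae, a change of 0.21 ± 0.32 with overlapping libraries, beside 0.33 in control.

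Of 46 genes of G2 and mitosis tested, 4 rose (beside 6.8% of all genes) and 3 fell (beside 7.91%). Leaving out library A raised both counts, as it did over all genes. The spindle checkpoint kinase Bub1b stood at 0.662 and 0.590 FPKM before and 4.02 and 3.82 FPKM after the step to the morula (rise 1.60 ± 0.28), the spindle protein Dlgap5 rose by 1.28 (2.57 and 1.25 to 6.66 and 5.24 FPKM) and the midzone kinesin Kif23 by 0.81 (14.7 and 23.1 to 36.8 and 29.9 FPKM). Cdc25c, the phosphatase that starts mitosis, stood at 13.5 and 13.2 FPKM at the 8-cell stage and 3.06 and 4.26 FPKM in morulae (change -1.63 ± 0.28), Pttg1, securin, at 305 and 289 FPKM in libraries A and B and 122 and 107 FPKM in morulae (change -1.37 ± 0.26), and Wee1, the kinase that opposes Cdc25c, was 7.86 and 7.50 to 3.81 and 3.30 FPKM (change -0.93 ± 0.27). The fourth rise, Cdkn1a, encodes the CDK inhibitor p21 and stood at 17.5 and 24.6 FPKM before and 49.4 and 47.8 FPKM after the step to the morula (rise 1.19 ± 0.30).

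Cdkn1a was also among 5 of 25 tested genes of the p53 response and apoptosis that rose (beside 6.8% of all genes), where control had 1 of 23 (beside 11.9%), and 3 fell. Phlda3, a p53 target that represses AKT, stood at 8.53 and 7.10 FPKM at the 8-cell stage and 30.9 and 21.2 FPKM in morulae (rise 1.60 ± 0.31), and Eda2r, a death receptor induced by p53, at 4.62 and 3.38 FPKM in libraries A and B and 10.2 and 10.3 FPKM in morulae (rise 1.18 ± 0.28). Trp53 itself was 5.40 and 3.89 to 11.6 and 9.52 FPKM (rise 1.04 ± 0.29) and Trp53inp1 3.31 and 4.08 to 6.22 and 7.08 FPKM (rise 0.71 ± 0.28). Trp53 rose in control too (1.31), while Cdkn1a (0.98 ± 0.40), Eda2r (1.46 ± 0.57) and Trp53inp1 (1.13 ± 0.33) passed the test of the difference. In all 3 both TMZ morula libraries were above the other 6 libraries. The share of all genes with such morulae was not counted, and the test of the difference uses the same values. Gadd45g (6.01 and 2.65 to 0.422 and 1.36 FPKM, -1.47 ± 0.43), a stress gene high in the TMZ 8-cell libraries, Mcl1, a survival factor (41.4 and 45.6 to 18.2 and 23.3 FPKM, -1.04 ± 0.28), and Apaf1, the core of the apoptosome (1.37 and 2.76 to 0.548 and 0.788 FPKM, -0.85 ± 0.35), fell. The list's median was 0.17, with 0.03 for the difference, which was above 0 in 12 of 24, passed upwards in Cdkn1a, Eda2r and Trp53inp1 and downwards in Gadd45g. Rises and falls of the list were 6 and 7 without library A, 7 and 2 without library B, 3 and 0 without morula library 1 and 4 and 1 without morula library 2.

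Genes of the amino acid response were split. Of 19 ATF4-related genes tested, Asns, asparagine synthetase, rose (7.66 and 8.18 to 16.5 and 14.6 FPKM, 0.89 ± 0.27) as did Eif4ebp1, a repressor of translation (70.4 and 38.8 to 96.4 and 92.3 FPKM, 0.84 ± 0.35), and Phgdh and Cebpg fell. Phgdh, the first enzyme of serine synthesis (chr3:98220484-98255047), stood at 91.8 and 58.2 FPKM before and 19.5 and 22.02 FPKM after the step to the morula (change -1.77 ± 0.32), against 66.4 and 47.6 FPKM in control morulae, and its difference of -1.72 ± 0.45 passed (adjusted p = 0.437), with 57.2% of its 31-base stretches found elsewhere. Cebpg, a partner of ATF4, was 19.02 and 22.2 to 9.42 and 11.5 FPKM (change -0.92 ± 0.28). Of 9 amino acid carriers tested Slc38a4 (2.26 and 2.90 to 8.37 and 5.71 FPKM, 1.15 ± 0.30) and Slc6a14 (6.15 and 6.30 to 12.5 and 9.47 FPKM, 0.72 ± 0.28) rose and Slc1a5, a glutamine carrier, fell (1.97 and 4.59 to 0.815 and 1.40 FPKM, -0.96 ± 0.39). Slc6a14 rose more in control (1.999), and the difference of -1.28 ± 0.36 passed.

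Among 22 tested genes of acetyl-CoA supply, histone acetylation and its readers, none rose and 18 were below 0, with a median of -0.34 (0.05 in control, where 4 of 23 fell). Sirt1, the NAD-dependent deacetylase (chr10:63154581-63217483), stood at 15.5 and 21.0 FPKM at the 8-cell stage and 5.48 and 7.62 FPKM in morulae (change -1.35 ± 0.31) and fell in control too (-1.07). The bromodomain reader Brd2 (7.50 and 11.8 to 4.94 and 5.16 FPKM, -0.78 ± 0.31) fell, a call that was lost without library B and without either morula library. In Brd2 control moved by 0.26, and the difference of -1.05 ± 0.43 passed the threshold. Without library A the list had 3 rises and 3 falls, and without library B 7 falls and no rise.

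Of 31 lysosomal and endocytic genes tested the protease Ctsd rose (16.0 and 17.3 to 28.5 and 26.5 FPKM, 0.69 ± 0.27), and the proteases Ctsb (99.2 and 85.3 to 29.7 and 56.9 FPKM, -1.14 ± 0.37) and Ctsc (921 and 515 to 272 and 414 FPKM, -1.03 ± 0.38) and the ganglioside activator Gm2a (325 and 166 to 92.4 and 139 FPKM, -1.02 ± 0.40) fell. Of 11 tested genes of DNA methylation and imprinting, Dnmt3l, the cofactor of de novo methylation, rose (15.6 and 10.4 to 27.4 and 26.5 FPKM, 1.03 ± 0.30), as did the imprinted carrier Slc38a4, and Igf2r, the imprinted receptor that clears IGF2 (chr17:12901293-12988614), fell from 39.6 and 26.2 to 7.45 and 10.01 FPKM (-1.78 ± 0.33, -1.47 in control). Markers of other cells that oocyte collection can carry gave no call. Of 12 cumulus and granulosa markers 4 were assigned, 3 were tested and none passed. Star, a steroid carrier of those cells, was below 1 FPKM in all 8 libraries. Amhr2 had signal, at 10.2 and 7.85 FPKM in libraries A and B and 6.5 and 8.99 FPKM in TMZ morulae. Serpine2 stood at 2.28 and 2.01 FPKM in A and B and 2.95 and 2.09 FPKM in TMZ morulae. Whether such cells were present was not tested. The summed level of the cumulus and granulosa markers was 42.1 to 90.4 FPKM in the TMZ 8-cell libraries and 59.5 to 68.7 FPKM in the TMZ morulae. Most of it came from Gja1, which the embryo also expresses. Of 4 blood markers 2 were assigned, Ptprc was near 0 and Hba-a1 stood between 2.997 and 6.80 FPKM in the 4 TMZ libraries.

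Of the lists, the genes of the mitochondrial chromosome had the largest median difference between the TMZ and control stage changes. These encode 13 proteins of the respiratory chain, 2 ribosomal RNAs and the tRNAs that read them, all cut from long transcripts of both strands. The values of these genes are thus not independent of each other. The libraries were made by full-length mRNA amplification, and the strand setting is not given. Whether fragments at a tRNA gene came from the mature tRNA, a longer transcript or a neighbouring gene was not tested. Values of tRNA genes below are thus not levels of mature tRNA. Their share of all fragments was 2.94% and 4.12% in control 8-cell libraries and 2.23% and 4.05% in libraries A and B. In morulae it was 2.53% and 1.42% in control and 2.57% and 2.45% under TMZ. In control embryos 21 of 33 tested mitochondrial genes fell (beside 11.4% of all genes) and none rose, with a median of -1.30. Under TMZ 4 of 31 rose (beside 6.8%), 4 fell (beside 7.91%) and the median was -0.08. The difference was above 0 in all 33 and passed in 16 (beside 4.89% of all genes), with a median of 1.38. It was larger in the tRNA genes, where 15 of 18 passed with a median of 1.52, than in the 13 protein-coding genes, where mt-Atp8 passed and the median was 0.67. The protein-coding differences were uneven. They were 2.43 in mt-Atp6, 2.17 in mt-Atp8 and 1.93 in mt-Co3, whose 31-base stretches all stand elsewhere in the genome. In mt-Co2, also with all stretches elsewhere, the difference was 0.47. It was 0.26 in mt-Nd1 (no stretch elsewhere), 0.20 in mt-Nd2 (13.6%) and 0.08 in mt-Nd5 (17.1%). It was 1.48 in mt-Nd3 (99.1%), 1.27 in mt-Co1 (63.9%), 0.78 in mt-Nd4l (100%) and 0.56 in mt-Nd4 (63.0%). In mt-Nd6 (7.4%) it was 0.67 and in mt-Cytb (6.6%) 0.60. In tRNA genes with no stretch elsewhere it ran from 1.20 (mt-Tm) to 2.83 (mt-Ti). The part of shared sequence in these differences was not tested. Leaving out any single library kept the median of the difference between 0.83 (without A) and 1.80 (without B), with 12 to 23 genes passing upwards and, without A, 1 downwards.

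Sequences of 4 tRNA genes whose difference passed are given with the anticodon in capitals. They are from chrM of GRCm39, on the strand of the gene.
mt-Tm (methionine), chrM:3845-3913: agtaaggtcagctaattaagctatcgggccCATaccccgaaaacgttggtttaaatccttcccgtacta
mt-Tl1 (leucine), chrM:2676-2750: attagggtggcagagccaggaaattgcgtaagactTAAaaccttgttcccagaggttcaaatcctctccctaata
mt-Tf (phenylalanine), chrM:1-68: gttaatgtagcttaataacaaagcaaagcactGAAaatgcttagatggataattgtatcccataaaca
mt-Tc (cysteine), chrM:5192-5257: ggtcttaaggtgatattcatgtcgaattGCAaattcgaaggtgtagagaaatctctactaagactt

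mt-Tm stood at 150.1 and 347 FPKM in libraries A and B and 55.5 and 64.1 FPKM in morulae (change -1.92 ± 0.42), while control fell from 534 and 567 to 53.7 and 72.7 FPKM (-3.12 ± 0.22). The morulae of both treatments overlapped, and the control 8-cell libraries were above the TMZ ones. mt-Tl1 was 74.0 and 71.6 to 35.4 and 39.9 FPKM (change -0.93 ± 0.27), with 112 and 181 to 27.4 and 25.6 FPKM in control. mt-Tf was 17.5 and 24.3 to 43.6 and 33.2 FPKM (rise 0.85 ± 0.31), with 59.2 and 53.7 to 38.5 and 20.6 FPKM in control, so it rose under TMZ and fell without it. mt-Tc stood at 189.5 and 172 FPKM before and 572 and 459.8 FPKM after the step to the morula (rise 1.5002 ± 0.27). Its TMZ morulae were above every other library, and the control change was 0.25 ± 0.26. mt-Tn (1.20 and 0.416 to 3.05 and 2.81 FPKM, 1.16 ± 0.33) and mt-Tr (4.16 and 5.42 to 13.6 and 10.8 FPKM, 1.19 ± 0.29) also rose.

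Among the mitochondrial mRNAs, mt-Cytb, the cytochrome b of complex III, was 8922 and 10867 to 5931 and 6813 FPKM (change -0.63 ± 0.23) and mt-Nd2, of complex I, 1788 and 2193 to 1221 and 1260.1 FPKM (change -0.67 ± 0.25). mt-Atp8, a subunit of the ATP synthase, was 9.57 and 24.6 to 17.3 and 24.6 FPKM (change 0.40 ± 0.46), with 22.8 and 42.7 to 8.50 and 8.34 FPKM in control. The ribosomal RNAs mt-Rnr1 (947 and 1601 to 1503 and 1513 FPKM) and mt-Rnr2 (4669 and 5559.6 to 4995 and 4655 FPKM) did not pass. All 31-base stretches of mt-Atp8 and mt-Tn, 63.9% of those of mt-Tc and 65.8% of those of mt-Tr stand elsewhere in the genome too, and none of those of mt-Tm, mt-Tl1 and mt-Tf. The tRNA genes shown are 66 to 75 bases long. The median level of the 18 tRNA genes (log2) was 6.14 and 6.24 in the control 8-cell libraries, 4.32 and 5.43 in TMZ libraries A and B, 5.00 and 4.20 in control morulae and 5.33 and 5.23 in TMZ morulae. The median difference was 1.52 without A and 1.95 without B.

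**Figure D5:**
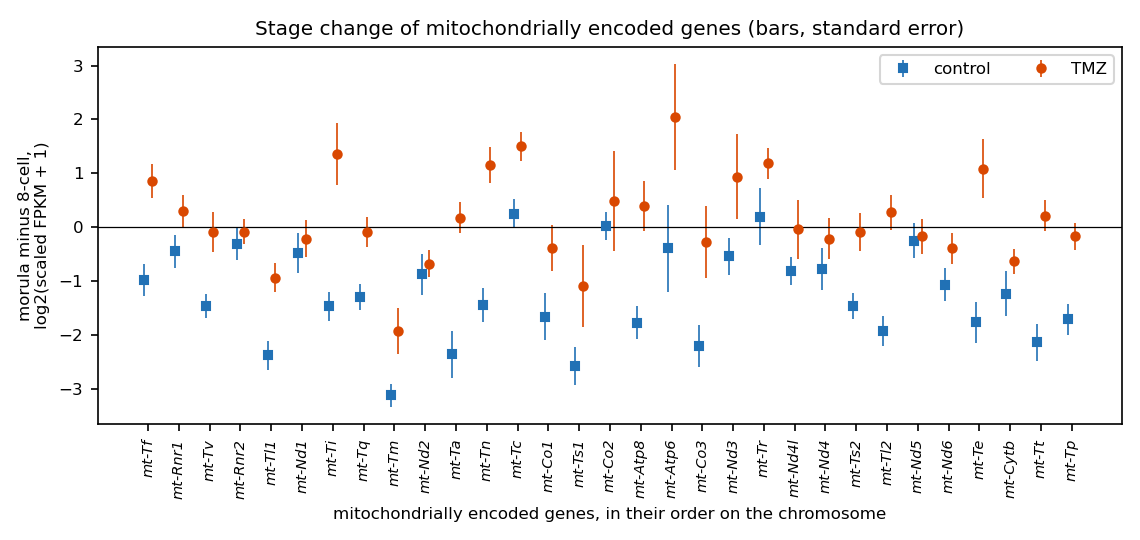
Morula minus 8-cell change on the log2(scaled FPKM + 1) scale of the 31 mitochondrially encoded genes tested under TMZ, in chromosome order, for control (squares) and TMZ (circles); bars are standard errors. The TMZ value lies above the control value in every gene.

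Processed pseudogenes, intronless copies of mRNAs that share sequence with their parents, were the other large group whose difference from control was above 0. Of 918 tested under TMZ 102 rose (beside 6.8% of all genes) and 35 fell, with a median of 0.27, while in control 97 of 1026 rose, 289 fell and the median was -0.35. They made up 265 of the 417 genes whose difference was higher under TMZ, and 976 of the 8534 genes tested. In contrast, the 6590 protein-coding genes had a median of -0.01 under TMZ (0.04 on FPKM as deposited), with 397 rises and 525 falls. Over the 976 pseudogenes the median level was 2.05 and 2.21 (log2) in the control 8-cell libraries, 1.644 and 1.99 in TMZ libraries A and B, 1.68 and 1.89 in control morulae and 2.01 and 2.12 in TMZ morulae. Library A was the lowest and its partner B was near the TMZ morulae. Without A the TMZ median was 0.11 and without B 0.45, and the median difference from control was 0.42 and 0.80. Pseudogenes of 500 to 1000 bases (312) had a median difference of 0.52 and protein-coding genes of that length (223) 0.04. The part of library A in this result was not tested beyond these values, and gene types were looked at after the values were seen.

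Smim29 and Dynlt3 fell in control and were higher in TMZ morulae than in TMZ 8-cell embryos. Smim29, a small membrane protein, stood at 7.24 and 4.19 FPKM at the 8-cell stage and 9.71 and 13.4 FPKM in morulae (rise 0.93 ± 0.34) and fell in control from 10.6 and 11.8 to 6.76 and 5.58 FPKM, a difference of 1.70 ± 0.41 (adjusted p = 0.43). Dynlt3, a light chain of the dynein motor, stood at 7.98 and 6.5003 FPKM in libraries A and B and 11.3 and 11.6 FPKM in morulae (0.60 ± 0.27, which did not pass) and fell in control from 6.98 and 10.6 to 5.16 and 4.26 FPKM, a difference of 1.36 ± 0.37. With mt-Atp8 and Eda2r these were the 4 largest differences upwards under the rule for names. The 4 largest downwards were the entries of Vars1, Lztr1, Polg2 and Prl7b1, at -9.26, -5.14, -3.00 and -2.69, described above.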

How the data were processed

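RNA-seq libraries were made by full-length mRNA amplification from mouse embryos. Per the submitters' processing notes, fastp 0.23.4, STAR 2.7.9a and featureCounts 2.0.6 were used with GRCm39. The annotation release and the strand setting are not given in the sources used here. The authors deposited FPKM for each stage in a separate table, with no gene names. All value columns could be mapped to a group. The TMZ columns of the 8-cell stage have identical headers and were used as replicates of their group without a number.

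Fragment numbers and gene lengths were recovered from the deposited FPKM, where all values came out as whole fragments. Rows were aligned in order to GENCODE vM39 genes by recovered length, and kept at a posterior of at least 0.95. Of 10021 rows of the 8-cell table with a mean of at least 1 FPKM, 9056 (90.4%) were assigned, and 8487 of 9685 such rows (87.6%) for the morula. The recovered length fitted the reference length exactly, as a whole fraction of it, in 38.7% and 38.0% of these assigned rows. The other names rest on order and an approximate length. Of the 10 largest falls, Prl7b1 and Slc1a7 had an exact length over both stages, and the others, with Vars1 and Lztr1, did not. With genes removed from the annotation as a check, 3.76% of 452 and 3.77% of 424 were given to another gene. Of the genes with a TMZ mean of at least 1 FPKM, 448 were assigned only in the 8-cell table and 178 only in the morula table, and were not compared.

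FPKM were scaled by the median ratio over 12898 genes, log2-transformed with a pseudocount of 1 and tested by limma-trend (limma 3.58.1, R 4.3.3) with Benjamini-Hochberg adjustment. Stages were compared within TMZ and within control, and the difference of the stage changes was tested over all 8 libraries as an interaction. On simulated data for the TMZ comparison (8101 genes), 87% of genes changed 2-fold and 100% of those changed 4-fold were called, and 4.48% of unchanged genes. For the interaction (8396 genes) these were 54%, 98% and 4.478%. The simulation gave every library the same spread, the median of the groups, with independent noise, and changed only genes with a mean above 5 FPKM. Libraries A and B spread more (SD 0.53), so these rates need not hold for the TMZ comparison, the interaction or low genes. P-values measure the spread between 2 libraries per group, which may be technical.

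Named genes were the 10 largest rises and falls (protein-coding, no overlap of the stages, mean of at least 10 FPKM in the higher stage), the 4 largest differences each way, up to 3 members per list and direction, and fixed anchor genes. Other called members of the lists (Trp53, Trp53inp1, Suclg2, Dld, Aqp3, Psmb4, Rpl35, Rpl14, Kif23, mt-Tf, mt-Cytb, Npm2, Dazl, Fabp5, Fabp3, Plin3 and Abhd5) were named after their values were seen. The 28 lists, their members and the tests were chosen with earlier results of these data known. Alternatives covered the pseudocount, the filter, the scaling, the assignment, the model and each library left out, and a fit on protein-coding genes alone was added after the data were seen. The share of 31-base stretches of a gene found elsewhere was counted in GRCm39. Of 170 genes checked, 40 had more than 20% elsewhere, and not all of these are marked in the text. Promoters are those of RefSeq on GRCm38.p6 and were matched by symbol. A gene that the rule would have named is not reported here.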

Additional observations from a re-analysis of the deposited data

Results flagged for a closer look

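Of 143 named genes in the test of the difference between the TMZ and control stage changes, 35 passed an unadjusted P of 0.05, 16 higher and 19 lower under TMZ. None passed at an adjusted p under 0.05 by limma, where the smallest adjusted p over all genes was 0.354, and several of these genes were named because of this difference. The values that follow are log2 differences, TMZ minus control.

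The stage change was lower under TMZ in entries with uneven or high 8-cell libraries, at Vars1 -9.26, Lztr1 -5.14, Polg2 -3.00, Prl7b1 -2.69, Pkn3 -1.78, Pola2 -1.78 and Gadd45g -1.75. Of these, Vars1, Lztr1, Polg2 and Pola2 also had both TMZ morulae below both control morulae. The share of all genes with such morulae was not counted, and the difference that lists these genes uses the same morula values. In Phgdh, at -1.72, the 8-cell libraries of TMZ and control overlapped and the TMZ morulae were below the control morulae. The stage change was also lower for the lineage and lipid genes Pou5f1 -1.27, Krt8 -1.07, Klf5 -0.85, Fgfr2 -0.72 and Fabp5 -1.19, and for Slc6a14 -1.28, Brd2 -1.05, Cdc25c -0.95, Dazl -0.94, Cebpg -0.88 and Acads -0.88.

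The stage change was higher under TMZ in mitochondrial genes, at mt-Tm 1.20, mt-Tc 1.25, mt-Tl1 1.44, mt-Tf 1.83, mt-Atp8 2.17 and mt-Tn 2.60. Of the p53 and apoptosis list, Cdkn1a 0.98, Trp53inp1 1.13 and Eda2r 1.46 passed upwards and Gadd45g, given above, downwards, with 12 of 24 above 0 and a median of 0.03. The stage change was also higher in Psmb4 0.73, Rpa1 0.78, Ndufaf2 0.88, Psmb10 1.10, Dynlt3 1.36, Oosp3 1.52 and Smim29 1.70.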

How the results depend on the processing

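With a mean of at least 5 FPKM (fewer genes tested), 296 genes rose and 330 fell under TMZ, 692 and 479 in control, and the difference passed for 147 and 110. With exact lengths only (fewer genes tested), these were 225 and 217 under TMZ, 330 and 482 in control, and the difference passed for 305 higher and 81 lower. On protein-coding genes alone, chosen after seeing the data, 605 fell in control, and 90 differences were higher and 181 lower under TMZ, which turns the balance of 417 and 222 over all genes. Differences lower under TMZ were 399 without a filter and 113 on FPKM as deposited. Where these settings keep the genes tested, the cause was not tested.

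With 1 library left out, rises under TMZ ran from 189 to 1491 and falls from 253 to 1273, rises in control from 727 to 1114 and falls from 729 to 1202, and differences from 248 to 703 higher and from 115 to 590 lower. These fits assume that the lone library of a stage varies like the other stage, and without library A 639 rises and 526 falls passed adjustment.

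Of 125 named genes past the threshold under TMZ, 37 kept the call in every alternative and 38 with each library left out. Over 143 named genes and 2135 values, 241 lost the call (171 with a library left out), 19 gained it and 16 changed sign, all in genes that had not passed. With each library left out, Gdf9 ran from -1.01 to 0.40, Mcm4 from -0.047 to 0.46, Pou5f1 from -0.37 to 0.49, Echs1 from -0.53 to 0.30, Tfap2c from -0.26 to 0.26, Dppa3 from -0.54 to 0.22, Hadhb from -0.22 to 0.59 and mt-Atp8 from -0.24 to 1.03. Tfap2c was 0.056 on FPKM as deposited and 0.014 with scaling over 4 columns, and Dppa3 was 0 with quantile normalization.

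No paired analysis was possible because the 8-cell TMZ columns have identical headers, so no replicate number ties them to a morula library. Sox2 and Acsl5 had a mean under 1 FPKM and were not tested, and a limit set by depth was not tested.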
